A study of Mus musculus with 9 samples.

Results

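The genes described here are the cytochromes P450 of families 1 to 3 that liver uses on drugs and other foreign compounds, together with Por, their reductase. The list held 42 names, chosen by gene family but with earlier results of these data known, and 40 of the 21936 genes measured matched it. One name, Cyp2c44, is an older name of Cyp2c23 and points to the same row, and Cyp2d13 was not analysed here. The members were 3 genes of family 1, 13 of Cyp2c, 6 of Cyp2d, 3 of Cyp2j, 6 other single genes of family 2, 8 of Cyp3a, and Por.

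Liver RNA of 9 male wild-type C57BL/6 mice, 3 in each of 3 groups, was sequenced. The mice were bought at 9 weeks of age and fed for 4 weeks. The MCS group received a methionine- and choline-sufficient diet and the MCD group a diet deficient in both, each with the vehicle 0.5% CMC-Na (sodium carboxymethyl cellulose). The HGPP group received the deficient diet and, by gavage in the same vehicle, 300 mg/kg of Gynostemma pentaphyllum polysaccharides. The deficient diet is used to produce steatohepatitis, and it is a nutritional model in which mice lose weight. Each library is numbered as a liver of its own in the labels, so the errors given are read as those between animals. Values are FPKM (fragments per kilobase of exon, scaled to the size of the library), and a gene was tested with limma on log2(FPKM + 0.1) where it reached 0.1 FPKM in at least 3 of the 9 libraries, which kept 13817 genes and 38 of the 40 members. A call is a Benjamini-Hochberg adjusted p under 0.05 over all 13817 genes, and because of the added 0.1 the change of a gene near that level is understated.

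Microsomal cytochromes P450 sit in the endoplasmic reticulum, hold a haem and insert an oxygen atom into their substrate with electrons that Por passes on from NADPH. Family 1 is switched on by the aryl hydrocarbon receptor, and many genes of Cyp2c and Cyp3a answer to the nuclear receptors CAR and PXR. Most of these genes are strongest in hepatocytes around the central vein, and several in the mouse differ between males and females through growth hormone. The Cyp2c, Cyp2d, Cyp2j and Cyp3a genes of the mouse arose by duplication and lie in clusters. Of 39 member coding sequences compared, 13 were at least 95% identical to another member, all of them Cyp2c or Cyp3a genes, so reads of these pairs can be split between them and their single values are uncertain.

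The libraries held 14964996 to 18902849 fragments in MCS, 11492656 to 16702372 in MCD and 13355284 to 15691031 in HGPP, as recovered from the FPKM steps. The FPKM values of all tested genes lay above MCS by a median of 0.40 (log2) for the MCD livers and 0.33 for the HGPP livers, and median-of-ratios scaling brought these shifts to 0.02 and 0.01. Calls of named genes that this scaling ends or adds are given with the gene. Of 9 hepatocyte markers, 1 was lower in MCD and 2 in HGPP than in MCS (3 and 1 by median-of-ratios scaling) and 0 were higher, with median log2 fold changes of -0.62 and -0.23 (-1.04 and -0.59 by that scaling) and summed levels of 63952 to 79966 FPKM in MCS, 31565 to 64715 in MCD and 48529 to 57375 in HGPP. Of 10 macrophage markers 8 were higher in MCD and 7 in HGPP than in MCS (7 and 5 by median-of-ratios scaling), with sums of 46.6 to 90.0 FPKM in MCS, 191 to 1113 in MCD and 129.6 to 303 in HGPP, and none was at 0 in a group. Of 8 stellate cell markers 5 were higher in MCD and 6 in HGPP (3 and 0 by median-of-ratios scaling), with sums of 39.6 to 49.4, 61.8 to 161.5 and 72.9 to 127 FPKM. All 4 kidney markers were at 0 in MCS and MCD. The 13 genes encoded on mitochondrial DNA summed to 36799.7 to 62185 FPKM in MCS, 52687 to 143202 in MCD and 46950.5 to 55576 in HGPP. Fewer hepatocytes and less of an RNA in each hepatocyte cannot be told apart in whole liver, and the part of these shifts in the results was not tested.

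Summed over all cytochromes, RNA levels were lower in the livers on the deficient diet. The sum was 9845 ± 757 FPKM for MCS, 6155 ± 809 for MCD and 6576 ± 986 for HGPP (mean ± SD, n = 3 each), and both groups on the deficient diet lay wholly below MCS. As a share of all FPKM of a library this was 2.37% in MCS, 1.43% in MCD and 1.62% in HGPP on average. Cyp2e1 alone made up 52.2 to 57.4% of the members' FPKM in MCS, 41.8 to 54.6% in MCD and 44.3 to 52.0% in HGPP. Without it the sum was 4309.8 ± 258, 2975 ± 256 and 3323 ± 319.7 FPKM, again with no overlap between MCS and the other groups.

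The subfamily sums followed different courses. The Cyp2c sum stood at 1157 ± 87.9 FPKM for MCS, 489.8 ± 66.4 for MCD and 622 ± 79.6 for HGPP. The Cyp2j sum stood at 190.3 ± 12.1, 79.3 ± 4.75 and 93.6 ± 3.71 FPKM, and for both subfamilies the MCS livers lay above all others. The same held for the Cyp2d sum, at 1605 ± 117, 1187 ± 219 and 1294 ± 160 FPKM. It also held for the single genes of family 2, at 5752 ± 605, 3274 ± 762 and 3396 ± 775 FPKM. The Cyp1 sum overlapped, at 222 ± 40.1, 203 ± 18.7 and 246 ± 42.5 FPKM. In FPKM the Cyp3a sum was nearly level, at 919 ± 181, 922 ± 142 and 924 ± 163, and all 3 groups overlapped. The sums are given before median-of-ratios scaling, whose divisors were 0.757 to 0.906 in MCS, 1.05 to 1.24 in MCD and 0.99 to 1.14 in HGPP. That scaling lowers the sums of the deficient-diet groups against MCS, so the level Cyp3a sum holds for FPKM only. No test was run on these sums.

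**Figure D1:**
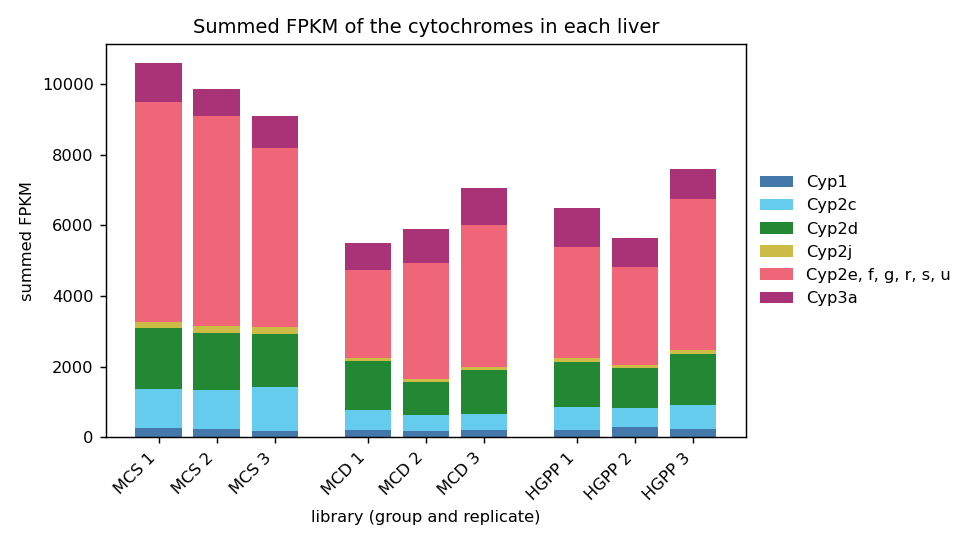
Summed FPKM of the cytochromes (vertical axis) in each of the 9 livers (horizontal axis), with 1 coloured segment for each subfamily. The bars of the 3 MCS livers end between 9085 and 10600.0 FPKM, those of the 6 livers on the deficient diet between 5509.6 and 7598, and the segment with Cyp2e1 is the tallest in every bar.

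By level in MCS, 14 of the 40 members stood over 100 FPKM, 10 between 10 and 100, 7 between 1 and 10 and 9 under 1. After Cyp2e1 at 5535 ± 617 FPKM, the order was Cyp2d26 at 769 ± 65.0, Cyp3a11 at 506 ± 181, Cyp2d10 at 495 ± 37.8 and Cyp3a25 at 347 ± 33.5 (SD, n = 3 each). The spreads of Cyp3a11 and Cyp2d10 overlap, so their order is not settled. Cyp3a16, Cyp3a41a and Cyp3a41b were at 0 in all MCS livers. Cyp3a16 and Cyp3a41b were not tested, and Cyp3a41a was tested only because 3 livers on the deficient diet passed the filter.

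Between MCD and MCS livers, which sets the deficient against the sufficient diet, 13 of the 38 members tested fell and 2 rose. This is 34.2% lower and 5.26% higher, against 2.55% lower and 19.6% higher among all genes tested. The median log2 fold change of the members was -0.46, against 0.40 over all genes. By median-of-ratios scaling 16 members fell and 2 rose against a background of 7.37% lower and 8.91% higher, and the members' median was -0.88 against 0.02. Between HGPP and MCS livers 13 members fell and 2 rose, against a background of 2.48% lower and 16.4% higher, with a median of -0.42 against 0.33. By median-of-ratios scaling this was 15 lower and 2 higher, against 4.86% and 5.1%, and the members' median was -0.78 against 0.01. The study's own rule was an unadjusted p under 0.05 together with a log2 fold change past 1 in size, from DESeq on read counts. Its thresholds were applied here to the limma fits, so the counts are not the study's calls. They gave 11 members lower and 3 higher in MCD, where 1.95% and 19.3% of all genes passed. In HGPP they gave 8 lower and 4 higher, where 1.48% and 10.9% did. The p alone, unadjusted, put 17 members lower and 3 higher in MCD, with 4.72% and 33.4% of all genes, and 17 lower and 4 higher in HGPP, with 4.55% and 31.4%. The livers did not overlap for 14 members on the lower and 5 on the higher side in MCD, with 5.08% and 38.1% of all genes, and for 16 and 5 in HGPP, with 4.87% and 36.7%. Cyp2s1 is 1 of the 5 in each comparison, and 1 of the 4 higher in HGPP in each of the 2 counts before. All its MCS values were under 0.1 FPKM, so it passed the filter only through livers on the deficient diet. Its place on the higher side was thus favoured by the filter. The count of 13 in HGPP was 7 without MCS replicate 3 and 7 without HGPP replicate 2, and the 2 higher in MCD became 4 without MCD replicate 1. Both comparisons use the same MCS livers, so the results for MCD and HGPP are set side by side for each gene and are not independent.

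**Figure D2:**
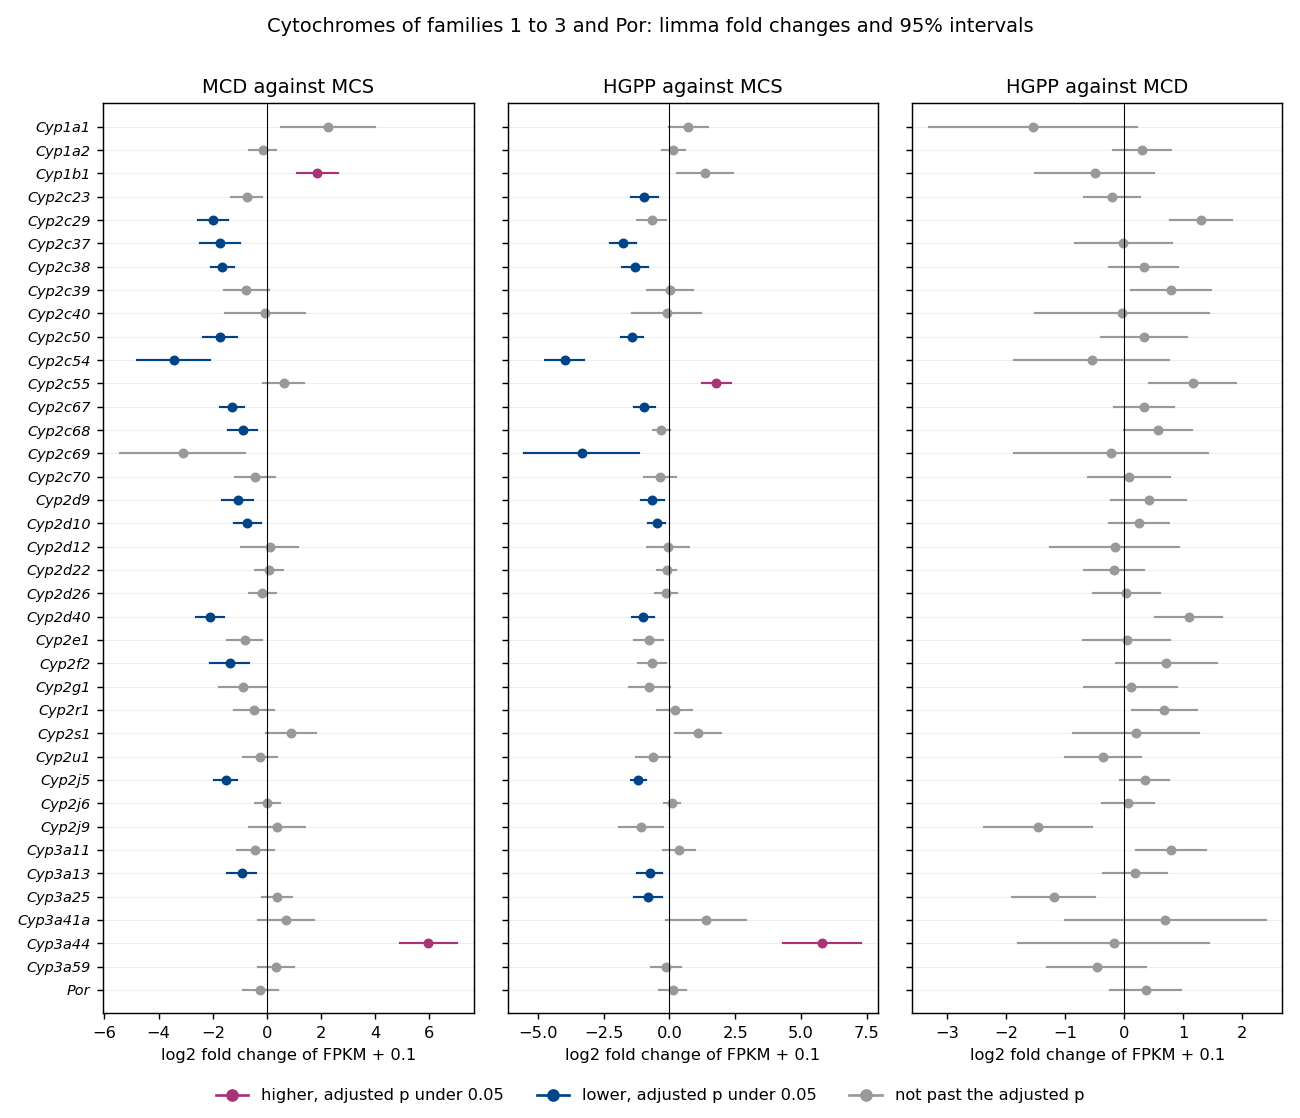
Limma log2 fold change of FPKM + 0.1 (horizontal axes, each panel with its own range) for the 38 members tested (rows), with 95% intervals, in MCD against MCS, HGPP against MCS and HGPP against MCD. Points in colour passed the adjusted p, 13 lower and 2 higher in each of the comparisons with MCS and 0 in HGPP against MCD, and Cyp3a44 lies farthest to the right in the comparisons with MCS.

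Cyp2c, the largest subfamily, had the most calls: 7 of its 13 members fell in MCD and 7 fell and 1 rose in HGPP against MCS. As a share this was close to Cyp2d, where 3 of 6 members fell in each comparison. The background of all genes tested was 2.55% lower in MCD and 2.48% in HGPP. The Cyp2c members of the mouse make epoxides and hydroxy acids from arachidonic acid as well as oxidizing drugs. The 12 members from Cyp2c55 to Cyp2c70 lie on chromosome 19 between 39007019 and 40187333, and Cyp2c23 lies apart at chr19:44005022-44029208. Genes outside the list that may lie between them were not examined. Gene coordinates are those of the GENCODE vM21 annotation on GRCm38, which was matched to the files through gene lengths, since no source used here gives the submitters' build.

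Cyp2c37, at chr19:39992424-40012243, and Cyp2c50, at chr19:40089688-40113950, share 96.1% of their coding sequence. Cyp2c37 stood at 261, 264 and 318 FPKM in the MCS livers, 104, 46.5 and 122 in the MCD livers and 75.2, 65.3 and 116 in the HGPP livers. All MCS livers lay above all livers of the other groups, whose highest was MCD replicate 3. The log2 fold change of Cyp2c37 was -1.74 (SE 0.33, limma adjusted p = 0.00656) in MCD and -1.75 (SE 0.22, limma adjusted p = 0.00188) in HGPP against MCS. Cyp2c50 stood at 139, 145 and 135 FPKM in the MCS livers, 46.5, 25.7 and 60.5 in the MCD livers and 42.1, 49.4 and 69.7 in the HGPP livers. The MCS values of Cyp2c50 lay close together, the other 6 overlapped each other, and MCD replicate 2 was the lowest for both genes. Cyp2c50 changed by -1.74 (SE 0.29, limma adjusted p = 0.00420) in MCD and -1.41 (SE 0.19, limma adjusted p = 0.00254) in HGPP.

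The upstream sequences of this pair are shown because the genes moved together. They are the 250 bases before each gene's start in the RefSeq table (GRCm38.p6, read 5′ to 3′ on the gene's own strand, here the plus strand), chr19:39992174-39992423 for Cyp2c37 and chr19:40089429-40089678 for Cyp2c50. Capitals mark matches to the searched motifs on either strand, and in this pair there is 1, a C/EBP-type match (TTGCNNAA, found on the opposite strand) in Cyp2c37.
Cyp2c37: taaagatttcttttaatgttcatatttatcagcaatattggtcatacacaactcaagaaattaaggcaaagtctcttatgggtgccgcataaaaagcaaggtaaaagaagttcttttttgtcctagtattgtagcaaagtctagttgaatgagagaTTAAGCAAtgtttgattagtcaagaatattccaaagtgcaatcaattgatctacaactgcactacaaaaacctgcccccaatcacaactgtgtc
Cyp2c50: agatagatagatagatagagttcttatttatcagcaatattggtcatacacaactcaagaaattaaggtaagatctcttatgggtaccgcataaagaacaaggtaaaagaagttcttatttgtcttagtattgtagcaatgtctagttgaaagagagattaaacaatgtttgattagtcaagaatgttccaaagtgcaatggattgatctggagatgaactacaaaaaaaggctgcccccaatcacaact
Aligned end to end, the upstream windows are 87.8% identical over 245 bases. Motifs were searched on both strands in the 32851 windows of this length and in those of the 34 members with an entry. TTGCNNAA was found in 9.56% of all windows and in 5 of the members, and the HNF1 half-site GTTAAT in 6.43% and in 4. The STAT5 motif TTCNNNGAA was found in 7.02% of all windows and in 0 members, and GCGTG, the core of the aryl hydrocarbon receptor site, in 28.2% and in 5 members.

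Cyp2c54 lies between this pair, at chr19:40037940-40073827, and its coding sequence is 95.2% identical to that of Cyp2c50. It stood at 21.0, 29.0 and 11.0 FPKM in the MCS livers, 2.53, 0.469 and 3.46 in the MCD livers and 1.05, 1.30 and 0.963 in the HGPP livers. The drop was the steepest of the members with at least 10 FPKM in MCS, with a log2 fold change of -3.44 (SE 0.61, limma adjusted p = 0.00533) in MCD and -3.98 (SE 0.32, limma adjusted p = 0.000386) in HGPP. All 6 livers on the deficient diet were below the lowest MCS liver, and MCD replicate 2 held only 14 reads of it.

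Cyp2c29, an epoxygenase that CAR activators induce in mouse liver, stood at 143, 108 and 195 FPKM in the MCS livers, 34.5, 44.1 and 31.8 in the MCD livers and 82.8, 75.7 and 116 in the HGPP livers. The 3 groups took separate ranges except that the highest HGPP liver reached above the lowest MCS liver. It changed by -1.98 (SE 0.25, limma adjusted p = 0.00165) in MCD against MCS, and by -0.68 (SE 0.24, limma adjusted p = 0.0747) in HGPP against MCS, which missed the threshold but passed by median-of-ratios scaling (limma adjusted p = 0.0466). HGPP lay above MCD without overlap, with a log2 fold change of 1.30 (SE 0.23, limma adjusted p = 0.129) and a 95% interval of 0.78 to 1.82. Of the alternatives run, only leaving out MCD replicate 1 took that comparison past the adjusted p (limma adjusted p = 0.0365).

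Cyp2c38, Cyp2c67, Cyp2c68 and Cyp2c23 also fell, each in at least 1 of the comparisons with MCS. Cyp2c38 stood at 45.4 ± 3.20 FPKM for MCS, 14.5 ± 2.17 for MCD and 18.8 ± 6.35 for HGPP (SD, n = 3 each). It changed by -1.65 (SE 0.20, limma adjusted p = 0.00134) in MCD and -1.31 (SE 0.22, limma adjusted p = 0.00600) in HGPP, and MCS overlapped with neither group. Cyp2c67 changed by -1.29 (SE 0.20, limma adjusted p = 0.00311) and -0.96 (SE 0.18, limma adjusted p = 0.00998), from 59.98 ± 5.64 FPKM in MCS. Cyp2c68, the most abundant of the subfamily over all livers, stood at 261, 265 and 264 FPKM in the MCS livers, 199, 132 and 109.7 in the MCD livers and 239.8, 186 and 214 in the HGPP livers. The MCS livers lay close together and above all others, and the MCD and HGPP livers overlapped. Cyp2c68 fell in MCD by 0.89 on the log2 scale (SE 0.24, limma adjusted p = 0.0280), a call that was lost on leaving out any library but MCD replicate 1 (limma adjusted p 0.0593 to 0.0921). In HGPP it stood at -0.31 (limma adjusted p = 0.158).

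Cyp2c23, the epoxygenase formerly called Cyp2c44, fell in HGPP by 0.95 (SE 0.22, limma adjusted p = 0.0213). The call was lost without MCS replicate 3, HGPP replicate 2 or HGPP replicate 3 (limma adjusted p 0.0582 to 0.0797). In MCD the value was -0.75 (limma adjusted p = 0.0653, and 0.0372 by median-of-ratios scaling). Cyp2c23 stood at 125, 65.4 and 86.1 FPKM in the MCS livers, 66.2, 48.3 and 45.9 in the MCD livers and 52.0, 43.0 and 43.1 in the HGPP livers. MCS replicate 1 was the highest liver, and MCD replicate 1 slightly exceeded the lowest MCS liver.

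Cyp2c69 varied widely among the MCS livers, at 0.465, 2.36 and 13.7 FPKM, from 15, 63 and 351 reads. It stood at 0.255, 0.736 and 0 FPKM in MCD and 0.0438, 0.1998 and 0.336 in HGPP. Its call in HGPP against MCS, -3.33 (SE 0.96, limma adjusted p = 0.0419), was lost without any library but MCS replicate 1 (limma adjusted p 0.0745 to 0.12), and without MCS replicate 3 the value was -2.15. Its coding sequence is 97.9% identical to that of Cyp2c40, which stood at 1.01, 1.82 and 4.82 FPKM in the MCS livers, 3.50, 3.50 and 0.599 in the MCD livers and 1.32, 1.27 and 4.19 in the HGPP livers, with all groups overlapping.

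Cyp2c55, which makes hydroxy acids from arachidonic acid, was the member that rose in this cluster, at its outer end. It stood at 0.716, 0.962 and 1.005 FPKM in the MCS livers, 1.09, 2.31 and 1.11 in the MCD livers and 4.204, 2.77 and 3.03 in the HGPP livers. HGPP lay above MCS without overlap, with a log2 fold change of 1.78 (SE 0.24, limma adjusted p = 0.00281), and in MCD the change was 0.62 (SE 0.35, limma adjusted p = 0.213). HGPP also lay above MCD without overlap, by 1.16 (SE 0.33, limma adjusted p = 0.226) with a 95% interval of 0.42 to 1.90. The HGPP level of Cyp2c55 rests on 112, 81 and 95 reads. Cyp2c70, which makes the muricholic acids of mouse bile, and Cyp2c39 passed the test in no comparison, though Cyp2c39 was lower in MCD than in MCS by median-of-ratios scaling (limma adjusted p = 0.0422). Cyp2c70 stood at 93.5 ± 30.8, 69.7 ± 28.4 and 70.8 ± 16.1 FPKM in MCS, MCD and HGPP.

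**Figure D3:**
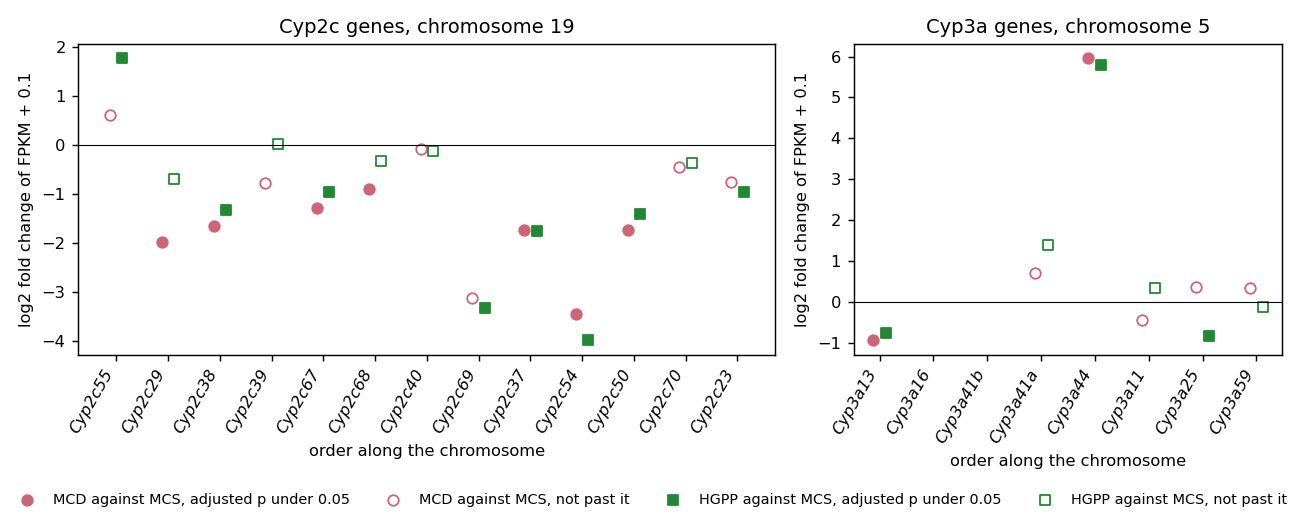
Log2 fold change against MCS (vertical axes) of the Cyp2c genes (left) and Cyp3a genes (right) in their order along the chromosome (horizontal axes, not to distance). Filled points passed the adjusted p, circles are MCD and squares are HGPP. Cyp2c55 at the left end is the only filled Cyp2c point above 0, Cyp3a44 is the only filled Cyp3a point above 0, and Cyp3a16 and Cyp3a41b have no point because they were not tested.

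In the Cyp3a cluster a single gene rose. Cyp3a44, at chr5:145773983-145805874 on the minus strand, is a form found in female mouse liver. It stood at 0.270, 0.685 and 0.613 FPKM in the MCS livers, 48.6, 62.3 and 16.4 in the MCD livers and 16.1, 18.6 and 115 in the HGPP livers, from 10, 21 and 18 reads in MCS, 1095, 2043 and 422 in MCD and 421, 535 and 3546 in HGPP. Every liver on the deficient diet lay far above every MCS liver, and HGPP replicate 3 was the highest of all. The log2 fold change was 5.96 (SE 0.47, limma adjusted p = 0.000256) in MCD and 5.79 (SE 0.66, limma adjusted p = 0.00148) in HGPP, and MCD and HGPP overlapped, with a difference of -0.17 (SE 0.72, limma adjusted p = 0.935).

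Cyp3a41a and Cyp3a41b, also found in female liver, are 99.9% identical to each other in coding sequence, and Cyp3a41a is 95.8% identical to Cyp3a44. They reached at most 25 and 20 reads in any liver, in HGPP replicate 3 in both cases, the liver with the highest Cyp3a44. Cyp3a16, a fetal form, reached at most 1 read, and Cyp3a41a passed the test in no comparison. Of the 4 tested members listed as female-biased, 1 rose and 0 fell in MCD, and 1 rose and 1 fell in HGPP against MCS. Cyp3a44 was the gene that rose and Cyp2c69 the gene that fell, while Cyp2c40 and Cyp3a41a passed in neither.

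The upstream sequences of these neighbours are shown because the genes differ in level while the windows are close to each other. All are the 250 bases before the gene's start in RefSeq's table (GRCm38.p6), on the minus strand: chr5:145805875-145806124 for Cyp3a44, chr5:145720137-145720386 for Cyp3a41a, chr5:145469724-145469973 for Cyp3a16 and chr5:145879855-145880104 for Cyp3a11, the main form of adult liver. Capitals mark AGGTCA, the letters of the nuclear receptor half-site, and TATAAA, the letters of the element bound by TBP. Both were searched on both strands, and the matches do not overlap.
Cyp3a44: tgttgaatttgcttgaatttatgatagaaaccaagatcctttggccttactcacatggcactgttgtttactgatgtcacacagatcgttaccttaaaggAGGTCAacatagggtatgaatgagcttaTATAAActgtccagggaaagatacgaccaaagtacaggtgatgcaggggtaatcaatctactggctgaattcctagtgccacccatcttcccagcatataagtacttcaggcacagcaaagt
Cyp3a41a: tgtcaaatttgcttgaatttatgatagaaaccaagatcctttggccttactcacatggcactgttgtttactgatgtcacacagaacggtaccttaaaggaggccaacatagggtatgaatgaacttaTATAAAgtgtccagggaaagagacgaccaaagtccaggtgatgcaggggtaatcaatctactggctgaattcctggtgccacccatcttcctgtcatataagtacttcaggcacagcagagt
Cyp3a16: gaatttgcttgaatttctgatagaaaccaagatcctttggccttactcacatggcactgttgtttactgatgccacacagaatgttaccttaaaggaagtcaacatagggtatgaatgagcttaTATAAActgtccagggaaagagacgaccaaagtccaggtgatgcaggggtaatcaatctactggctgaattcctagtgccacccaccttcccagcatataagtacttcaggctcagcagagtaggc
Cyp3a11: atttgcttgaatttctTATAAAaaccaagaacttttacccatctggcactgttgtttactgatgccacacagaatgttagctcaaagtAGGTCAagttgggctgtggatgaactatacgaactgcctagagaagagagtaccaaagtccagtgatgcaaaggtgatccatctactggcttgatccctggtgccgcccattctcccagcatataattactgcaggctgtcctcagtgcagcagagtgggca
Cyp3a44 is 95.9% identical to Cyp3a16, 94.4% to Cyp3a41a and 80.9% to Cyp3a11 over these windows. AGGTCA is found 150 bases before the start in Cyp3a44 and 162 bases before it in Cyp3a11, and these letters are not in the other windows printed. They occur in 14.0% of all windows of the table and in 8 of the 34 members. TATAAA is found 122 bases before the start in Cyp3a44 and Cyp3a41a, 126 in Cyp3a16 and 234 in Cyp3a11. It occurs in 12.4% of all windows and in 18 of the 34 members. A match is a description of the letters only.

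Cyp3a11, which oxidizes steroids and a broad range of drugs, made up most of the Cyp3a level together with Cyp3a25. Cyp3a11 stood at 683, 321 and 514 FPKM in the MCS livers, 291, 471 and 333 in the MCD livers and 753, 586 and 534 in the HGPP livers. All groups overlapped with MCS, whose own replicates 1 and 2 held the highest and the lowest MCS value, and the change was -0.43 (SE 0.31, limma adjusted p = 0.321) in MCD and 0.35 (SE 0.27, limma adjusted p = 0.373) in HGPP. HGPP lay above MCD without overlap, by 0.79 (SE 0.26, limma adjusted p = 0.266) with a 95% interval of 0.20 to 1.38. Cyp3a25 stood at 354, 377 and 311 FPKM in the MCS livers, 394, 358 and 641 in the MCD livers and 289, 152 and 171 in the HGPP livers. The HGPP livers lay below all others, with a change of -0.82 (SE 0.23, limma adjusted p = 0.0401) against MCS and -1.20 (SE 0.32, limma adjusted p = 0.206) against MCD, and the call against MCS was lost without any library but HGPP replicate 1 (limma adjusted p 0.0772 to 0.129). In MCD against MCS it was 0.37 (SE 0.26, limma adjusted p = 0.310), and -0.05 by median-of-ratios scaling.

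Cyp3a59, whose coding sequence is 97.5% identical to that of Cyp3a25, stood at 18.4, 19.98 and 19.8 FPKM in the MCS livers, 14.6, 28.4 and 36.0 in the MCD livers and 28.2, 15.1 and 13.2 in the HGPP livers. It overlapped in every comparison and was called only in MCD without MCD replicate 1 (log2 fold change 0.72, limma adjusted p = 0.0360). Cyp3a13, which lies apart from the cluster at chr5:137892932-137921619, stood at 57.2, 36.7 and 43.0 FPKM in the MCS livers, 19.8, 30.6 and 21.3 in the MCD livers and 22.0, 25.7 and 33.2 in the HGPP livers. It fell by 0.93 in MCD (SE 0.24, limma adjusted p = 0.0239) and by 0.75 in HGPP (SE 0.21, limma adjusted p = 0.0365), and neither group overlapped with MCS. The call in MCD was lost without MCS replicate 1, MCS replicate 3 or MCD replicate 3 (limma adjusted p 0.0738 to 0.0956), and that in HGPP without MCS replicate 1 or 3 or HGPP replicate 1 or 2 (limma adjusted p 0.0811 to 0.110).

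**Figure D4:**
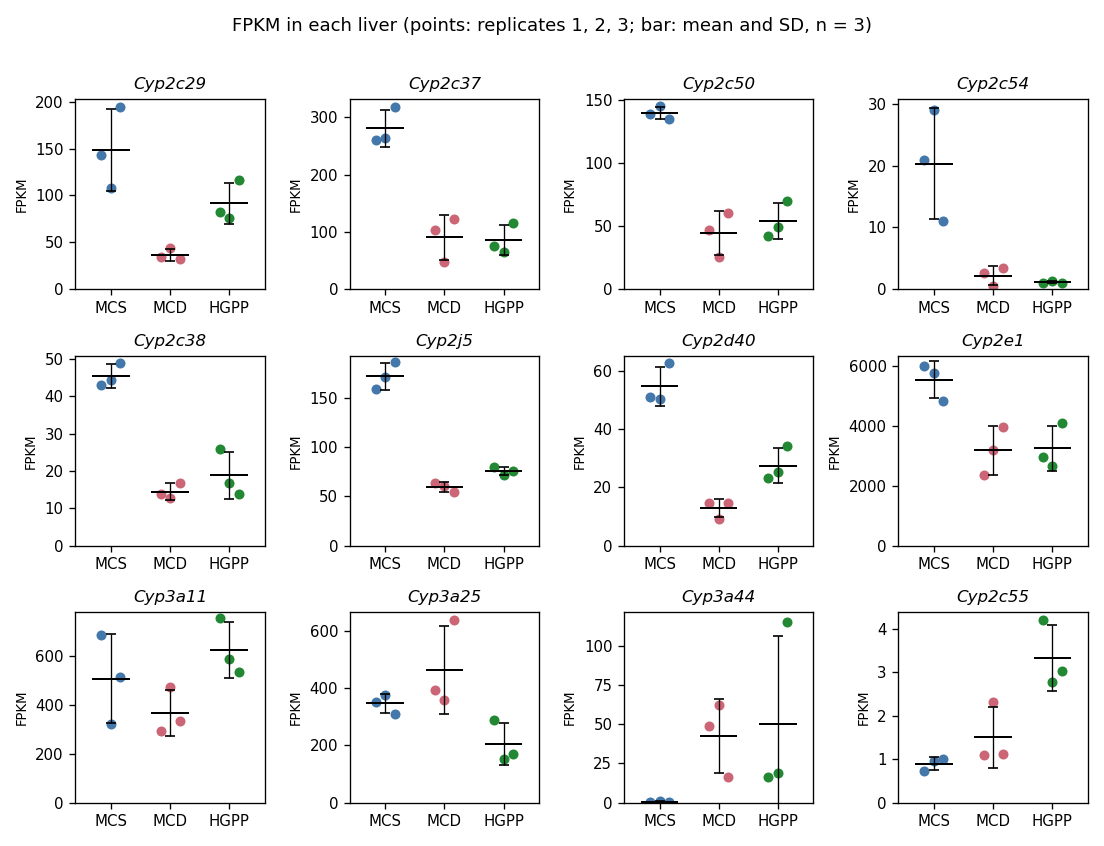
FPKM (vertical axes, linear from 0) of 12 members in each liver, with MCS, MCD and HGPP along the horizontal axes, points for replicates 1 to 3 from left to right, and bars for the mean and SD (n = 3; the lower SD of Cyp3a44 in HGPP runs below 0 and is not drawn). The MCS points lie above all others for Cyp2c37, Cyp2c50, Cyp2c54, Cyp2c38, Cyp2j5, Cyp2d40 and Cyp2e1 and below all others for Cyp3a44 and Cyp2c55.

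In Cyp2j the result rested on Cyp2j5, an epoxygenase of liver and kidney at chr4:96628773-96664154. It stood at 158, 170.5 and 186 FPKM in the MCS livers, 63.8, 60.2 and 54.0 in the MCD livers and 80.3, 71.4 and 75.3 in the HGPP livers. The livers took 3 separate ranges, and the change was -1.53 (SE 0.19, limma adjusted p = 0.00151) in MCD and -1.18 (SE 0.13, limma adjusted p = 0.00145) in HGPP. HGPP exceeded MCD by 0.35, with a 95% interval of -0.06 to 0.77 that includes 0 (limma adjusted p = 0.427). Cyp2j6 stood at 15.7 ± 1.40, 16.0 ± 2.42 and 16.7 ± 0.544 FPKM in MCS, MCD and HGPP (SD, n = 3 each). Its 95% interval was -0.43 to 0.47 in MCD and -0.22 to 0.40 in HGPP against MCS. Cyp2j9 stood at 4.69, 1.59 and 2.62 FPKM in the MCS livers, 4.38, 1.79 and 5.71 in the MCD livers and 1.03, 1.70 and 1.07 in the HGPP livers, and the HGPP livers lay below the MCD livers, with a log2 fold change of -1.46 (SE 0.41, limma adjusted p = 0.226).

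Of the 6 Cyp2d genes, which lie together on chromosome 15, 3 fell in both groups on the deficient diet. Cyp2d40, at chr15:82759833-82764183, stood at 51.0, 50.4 and 62.4 FPKM in the MCS livers, 14.8, 9.22 and 14.8 in the MCD livers and 23.1, 25.1 and 34.2 in the HGPP livers. The 3 groups did not overlap, with a change of -2.10 (SE 0.23, limma adjusted p = 0.00106) in MCD and -1.002 (SE 0.18, limma adjusted p = 0.00786) in HGPP against MCS. HGPP lay above MCD by 1.09 (SE 0.25, limma adjusted p = 0.163), with a 95% interval of 0.52 to 1.66.

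Cyp2d9, a testosterone 16-alpha-hydroxylase of male mouse liver, stood at 238, 207 and 183 FPKM in the MCS livers, 106, 68.6 and 132 in the MCD livers and 127, 107 and 169 in the HGPP livers. It fell by 1.08 in MCD (SE 0.26, limma adjusted p = 0.0172) and 0.66 in HGPP (SE 0.19, limma adjusted p = 0.0434), without overlap with MCS. The call in MCD was lost without MCS replicate 1 (limma adjusted p = 0.0758), and that in HGPP without any library but HGPP replicate 3 (limma adjusted p 0.0672 to 0.128). Cyp2d10, whose coding sequence is 92.5% identical to that of Cyp2d9, stood at 531, 499.9 and 456 FPKM in the MCS livers, 359, 240.0 and 308 in the MCD livers and 352, 349 and 362 in the HGPP livers. Its MCS livers also lay above all others, and it fell by 0.73 in MCD (SE 0.22, limma adjusted p = 0.0410) and 0.48 in HGPP (SE 0.14, limma adjusted p = 0.0457). Its call in MCD was lost without any library but MCD replicate 1 (limma adjusted p 0.0763 to 0.130) and in HGPP without any 1 of the 6 libraries (limma adjusted p 0.0791 to 0.116).

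The most abundant of the subfamily, Cyp2d26, passed in no comparison. It stood at 839, 759 and 710.2 FPKM in the MCS livers, 792, 567 and 709 in the MCD livers and 695, 599.7 and 829.6 in the HGPP livers, with all groups overlapping and 95% intervals of -0.67 to 0.33 in MCD and -0.53 to 0.27 in HGPP. Cyp2d22 stood at 76.0 ± 13.3, 80.6 ± 18.7 and 70.2 ± 6.88 FPKM in MCS, MCD and HGPP. Cyp2d12 had at most 14 reads in a liver.

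Among the single genes of family 2, Cyp2e1, which oxidizes ethanol and acetaminophen and is a source of reactive oxygen in fatty liver, stood at 6007, 5761 and 4836 FPKM in the MCS livers, 2357, 3213 and 3972 in the MCD livers and 2977, 2677 and 4106 in the HGPP livers. Every liver on the deficient diet was below every MCS liver. The log2 fold change was -0.83 (SE 0.30, limma adjusted p = 0.0695) in MCD and -0.78 (SE 0.25, limma adjusted p = 0.0544) in HGPP, which missed the adjusted p, with 95% intervals of -1.48 to -0.17 and -1.34 to -0.23. With voom on the recovered reads Cyp2e1 passed in both (limma adjusted p = 0.0344 and 0.0176). It also did with TPM (limma adjusted p = 0.0450 and 0.0428) and a filter at FPKM 1 (limma adjusted p = 0.0437 and 0.0292). Under the other 13 alternatives it missed in both. Groups that did not overlap were found among 5.08% of genes, on the lower side, in MCD and 4.87% in HGPP against MCS.

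Cyp2f2, which activates naphthalene and in liver is found around the portal vein, stood at 212, 187 and 227 FPKM in the MCS livers, 142, 70.5 and 51.2 in the MCD livers and 168, 89.3 and 152 in the HGPP livers. Both groups on the deficient diet lay below MCS, with a change of -1.38 (SE 0.33, limma adjusted p = 0.0168) in MCD and -0.66 (SE 0.23, limma adjusted p = 0.0741) in HGPP, where it passed by median-of-ratios scaling (limma adjusted p = 0.0497). The call in MCD was lost without MCS replicate 1 or 3 or MCD replicate 2 or 3 (limma adjusted p 0.0502 to 0.0668). Cyp2r1, the vitamin D 25-hydroxylase, stood at 5.38, 2.24 and 4.17 FPKM in the MCS livers, 2.26, 3.31 and 2.38 in the MCD livers and 4.25, 4.87 and 3.71 in the HGPP livers. It overlapped between MCS and both other groups, and HGPP lay above MCD by 0.68 (SE 0.24, limma adjusted p = 0.288). Cyp2u1, Cyp2g1 and Cyp2s1 passed in no comparison, though Cyp2g1 was lower in MCD than in MCS by median-of-ratios scaling (limma adjusted p = 0.0381). Their means ran from 0.0562 FPKM for Cyp2s1 in MCS to 2.77 for Cyp2u1 in MCS.

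In family 1, Cyp1a2, the constitutive hepatic form, stood at 251, 237 and 175 FPKM in the MCS livers, 218, 169 and 204 in the MCD livers and 212, 292 and 229 in the HGPP livers. The groups overlapped, with 95% intervals of -0.65 to 0.33 in MCD and -0.28 to 0.57 in HGPP against MCS. Cyp1a1, which is nearly silent in liver unless the aryl hydrocarbon receptor is activated, stood at 0.285, 0.574 and 0.575 FPKM in the MCS livers, 1.31, 12.8 and 0.958 in the MCD livers and 1.10, 0.833 and 0.595 in the HGPP livers. MCD replicate 2 stood far above the others, with 597 reads against at most 42 in any other liver. Both groups lay above MCS without overlap, at 2.26 (SE 0.78, limma adjusted p = 0.0612) in MCD and 0.72 (SE 0.33, limma adjusted p = 0.152) in HGPP. Without MCD replicate 2 the value in MCD was 1.13 (limma adjusted p = 0.0750). It passed without MCD replicate 1 (log2 fold change 2.72, limma adjusted p = 0.0384) and with the replicate numbers as a block or in one fit over 9 libraries (limma adjusted p = 0.0386 and 0.0398). Cyp1b1, a form found mostly outside hepatocytes, stood at 0.136, 0.307 and 0.1602 FPKM in the MCS livers, 0.790, 1.13 and 0.979 in the MCD livers and 0.513, 1.45 and 0.338 in the HGPP livers. It rose in MCD by 1.85 (SE 0.34, limma adjusted p = 0.00620), from at most 28 reads in an MCS liver, and in HGPP it stood at 1.35 (SE 0.47, limma adjusted p = 0.0723). By quantile normalization the call in MCD was lost (limma adjusted p = 0.0641).

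Por, at chr5:135670033-135735326, stood at 326, 194 and 185 FPKM in the MCS livers, 136, 247 and 211 in the MCD livers and 216, 238 and 293 in the HGPP livers. All groups overlapped, with 95% intervals of -0.89 to 0.41 in MCD, -0.40 to 0.65 in HGPP against MCS and -0.23 to 0.96 in HGPP against MCD. MCS replicate 1 was the highest liver for Por, and also for Alas1, the first enzyme of haem synthesis, which stood at 203, 54.5 and 70.4 FPKM in the MCS livers, 130.1, 153 and 105 in the MCD livers and 91.7, 113 and 126 in the HGPP livers.

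Genes of the proteins that serve the cytochromes were examined next. Of 6 redox partners 1 fell in MCD and 0 in HGPP against MCS, with medians of -0.32 and -0.09, and by median-of-ratios scaling 3 fell in MCD and 1 in HGPP, with medians of -0.74 and -0.44. Cyb5b, the cytochrome b5 of the outer mitochondrial membrane, fell by 1.12 in MCD (limma adjusted p = 0.00773), from 77.5 ± 15.9 to 35.4 ± 5.96 FPKM (SD, n = 3 each), while Cyb5a, the microsomal form, stood at 259 ± 33.3 and 309.5 ± 71.9 FPKM. Of 8 haem synthesis genes 0 passed limma's adjusted p in either comparison with MCS (1 higher and 1 lower at an unadjusted p under 0.05 in MCD, 1 and 0 in HGPP), and by median-of-ratios scaling 2 were lower in MCD and 0 in HGPP. Of 4 haem breakdown genes Hmox1, the inducible haem oxygenase, rose by 2.603 in MCD (limma adjusted p = 0.00402) and 1.60 in HGPP (limma adjusted p = 0.00220), from 10.4 ± 2.84 FPKM in MCS to 73.3 ± 49.2 and 31.4 ± 4.47. Macrophages express Hmox1 as well, and their markers were higher in the same groups, with the sums given above. Their part in the Hmox1 levels was not tested.

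The receptors and regulators of these genes were examined in lists of their own. Of 10 xenobiotic receptors and their partners 0 passed in MCD against MCS (limma, median log2 fold change -0.10, 1 higher and 1 lower at an unadjusted p under 0.05), and 1 fell in HGPP against MCS (median -0.25). By median-of-ratios scaling 1 fell in MCD and 2 in HGPP. The gene that fell in HGPP by the first scaling was Nr1i3, which encodes CAR, at 6.94, 8.38 and 9.22 FPKM in the MCS livers, 6.37, 4.88 and 11.1 in the MCD livers and 5.55, 3.65 and 4.24 in the HGPP livers. The HGPP livers lay below all MCS livers, with a change of -0.87 (SE 0.20, limma adjusted p = 0.0211). Nr1i2, which encodes PXR, stood at 42.0 ± 5.85, 56.6 ± 8.32 and 42.5 ± 6.83 FPKM in MCS, MCD and HGPP, and Ahr at 4.65 ± 1.31, 4.25 ± 0.485 and 4.15 ± 2.21, and these were named as the receptors of Cyp3a and family 1 whatever their values. Of 4 tested targets of the aryl hydrocarbon receptor outside the family, Nqo1, a quinone reductase that oxidative stress also induces, rose in MCD by 1.65 (SE 0.28, limma adjusted p = 0.00434) and in HGPP by 0.90 (SE 0.17, limma adjusted p = 0.0105), the last of which was lost by median-of-ratios scaling (limma adjusted p = 0.0743). Tiparp, a direct target, stood at 1.80 ± 0.332, 2.33 ± 0.243 and 1.92 ± 0.0313 FPKM and did not pass, and Ugt1a6b fell in MCD by 2.05 (limma adjusted p = 0.0176).

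Of 15 liver transcription factors 2 fell in MCD, and 2 fell and 1 rose in HGPP against MCS, while by median-of-ratios scaling 5 fell in MCD and 3 in HGPP and 0 rose. Cebpa, a factor that keeps hepatocyte genes on, changed in MCD by -0.94 (SE 0.29, limma adjusted p = 0.0422), and Hlf, a clock-controlled factor, by -0.82 (SE 0.26, limma adjusted p = 0.0496). In HGPP Dbp, another clock-controlled factor, changed by -1.33 (SE 0.26, limma adjusted p = 0.0112), Hlf by -0.87 (SE 0.24, limma adjusted p = 0.0390) and Cebpb, a factor of inflamed liver, by 1.16 (SE 0.32, limma adjusted p = 0.0350), which was lost by median-of-ratios scaling (limma adjusted p = 0.0989). Of 7 genes of the growth hormone axis 1 fell and 0 rose in each comparison with MCS. Their medians were 0.27 in MCD, with 5 of the 7 above 0, and -0.26 in HGPP (-0.15 and -0.61 by median-of-ratios scaling). Ghr, the hormone's receptor, was the gene that fell in both groups, at 28.8, 35.6 and 37.4 FPKM in the MCS livers, 16.8, 15.7 and 15.6 in the MCD livers and 18.8, 15.0 and 14.9 in the HGPP livers. No liver on the deficient diet reached the lowest MCS liver, and the change was -1.07 (SE 0.19, limma adjusted p = 0.00576) in MCD and -1.06 (SE 0.16, limma adjusted p = 0.00439) in HGPP. Of 10 male-biased liver genes outside the members 6 fell in MCD (median -1.94), and 6 fell and 1 rose in HGPP (median -1.19), where the 1 was lost by median-of-ratios scaling. Of 10 tested female-biased genes outside the members 2 rose and 1 fell in MCD (1 and 1 by median-of-ratios scaling), and 1 rose and 2 fell in HGPP. Their medians were 0.11 in MCD and 0.09 in HGPP. Among all genes tested 19.6% rose and 2.55% fell in MCD (8.91% and 7.37% by median-of-ratios scaling), and 16.4% and 2.48% in HGPP.

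Lists by place in the liver lobule gave the following counts. Of 7 members known as pericentral 4 fell in MCD and 3 in HGPP (4 and 4 by median-of-ratios scaling). Among all members tested 34.2% fell in each comparison, and among all genes 2.55% in MCD and 2.48% in HGPP. Of 10 other pericentral genes 1 fell in each, with medians of 0.17 in MCD and -0.13 in HGPP (-0.25 and -0.48 by median-of-ratios scaling). Of 10 periportal genes 2 fell in MCD, and 3 fell and 1 rose in HGPP. Their medians were -0.18 and -0.20 (-0.60 and -0.56 by median-of-ratios scaling). No test between these lists was run.

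Between HGPP and MCD livers, which sets the polysaccharides against vehicle on the deficient diet, no member passed limma's adjusted p, and 3 of the 13817 genes did, all lower (0.0217% lower, 0% higher). At an unadjusted p under 0.05, 6 members were higher and 2 lower, against 4% and 9.69% of all genes, and with voom on the recovered reads 0 members passed the adjusted p. By the study's thresholds on the limma fits 3 members were higher (Cyp2c29, Cyp2d40 and Cyp2c55) and 2 lower (Cyp2j9 and Cyp3a25), against 0.919% higher and 5.17% lower among all genes. HGPP and MCD livers did not overlap for 7 members on the higher side, where the background was 5.83%, and for 2 on the lower side, where it was 11.3%. The 7 were those 3 with Cyp2c39, Cyp2r1, Cyp2j5 and Cyp3a11. The median log2 fold change of the members was 0.15, against -0.07 over all genes. The study's gene set enrichment analysis of these groups lists pathways of drug and xenobiotic metabolism by cytochrome P450. A test of gene sets was not run here.

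For the 5 Cyp2c genes that fell in both comparisons with MCS, the interval of the difference between HGPP and MCD included 0. This 95% interval was -0.83 to 0.81 for Cyp2c37, -0.39 to 1.06 for Cyp2c50, -0.25 to 0.92 for Cyp2c38, -0.18 to 0.85 for Cyp2c67 and -1.86 to 0.76 for Cyp2c54, on the log2 scale. Cyp2e1 differed by 0.04, with an interval of -0.70 to 0.78. Over the same livers the hepatocyte markers had a median log2 difference of 0.31 and the 13 mitochondrial genes of -0.85. The median was -2.22 for 5 neutrophil markers, -1.905 for 5 B cell markers and -1.49 for 10 macrophage markers. No gene of these 5 lists passed limma's adjusted p, and at an unadjusted p under 0.05 the counts were 0 of the hepatocyte, 4 of the mitochondrial, 5 of the neutrophil, 5 of the B cell and 6 of the macrophage genes, all lower. The part of these differences in the members' values was not tested.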

How the data were processed

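RNA-seq was done on 9 mouse livers, 3 in each of the MCS, MCD and HGPP groups, with each library counted as 1 replicate. The authors deposited FPKM per gene and library. STAR 2.7.7a, featureCounts 2.0.0 and fastp 0.20.1 are listed in the submitters' processing notes, with no role given, whereas the study's methods name Cutadapt and HTSeq 0.9.1. No source used here gives the genome build. FPKM is relative to each library's total, so a few very abundant genes move all others.

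Members were matched by symbol. The members and gene lists were chosen with earlier results of these data known. A gene entered the tests with at least 0.1 FPKM in 3 of 9 libraries, and log2(FPKM + 0.1) was fitted for each pair of groups in limma 3.58.1 (R 4.3.3) with a mean-variance trend. P-values were adjusted by the Benjamini-Hochberg method over all 13817 genes, with a threshold of 0.05. The fit was also run on simulated libraries with independent normal noise, where it was required to return the added fold changes. That run does not show that the p-values hold for these libraries. Values in every liver are given for members called in a comparison without overlap whose mean reached 1 FPKM in any group, at most 6 a subfamily by size of change, for the most abundant member of each subfamily, and for Por. Of each other list up to 3 genes are named, called genes first and then the most abundant. Ahr, Nr1i2, Tiparp, Cyb5a and Alas1 were named for their role, whatever their values.

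Whole reads were recovered from FPKM with GENCODE vM21 exon lengths: of 115792 values up to 1000 reads, 98.13% came out whole within 0.02. In these units 0.1 FPKM is 1.15 to 1.89 reads per kilobase, so members under 1 FPKM rest on few reads. Sequences are RefSeq promoters of GRCm38.p6. The alternatives were other pseudocounts, filters, scalings and designs, voom on the recovered reads, and leaving out each library.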

Additional observations from a re-analysis of the deposited data

How the results depend on the processing

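None of the 30 member calls changed direction under any of the 16 alternatives run in its comparison. In MCD against MCS, Cyp2c29, Cyp2c37, Cyp2c38, Cyp2c50, Cyp2c67, Cyp2d40, Cyp2j5 and Cyp3a44 passed under all 16, and in HGPP against MCS Cyp2c37, Cyp2c38, Cyp2c50, Cyp2c54, Cyp2c67, Cyp2d40, Cyp2j5, Cyp2c55 and Cyp3a44 did. In MCD against MCS the 3060 genes called became 1795 with no filter and 1258 by quantile normalization (669 higher and 589 lower, against 2707 and 353), and 1248 to 3629 with a library left out. By median-of-ratios scaling the split was 1231 higher and 1019 lower. The 13 lower members became 7 with no filter and 9 to 14 with a library left out. The 2 higher members became 1 with a filter at FPKM 1, which leaves out Cyp1b1, 1 by quantile normalization and 2 to 4 with a library left out. In HGPP against MCS the 2602 genes called became 1567 with no filter, 1376 by median-of-ratios scaling (704 higher and 672 lower, against 2260 and 342), 1201 by quantile normalization (658 and 543), 1420 in one fit over 9 libraries and 1025 to 2025 with a library left out. Its 13 lower members became 8 with no filter, 8 in one fit over 9 libraries and 7 to 10 with a library left out, and its 2 higher members 2 to 3. In HGPP against MCD the 3 genes called became 0 with no filter, 0 by quantile normalization, 5 with TPM, 16 in one fit over 9 libraries, 1 with voom on recovered reads and 0 to 443 with a library left out, the 443 without MCD replicate 1. The 0 higher members became 0 to 1, the 1 being Cyp2c29 without MCD replicate 1, and the 0 lower members stayed at 0. The cause of these changes was not tested. Depth limits Cyp3a41a, Cyp3a41b, Cyp3a16, Cyp2d12, Cyp2s1 and Cyp1b1, which rest on few reads.

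The main fits did not use the replicate numbers to pair the livers. The correlation of deviations between livers with the same number was -0.34 to -0.26 in MCD against MCS, -0.31 to 0.02 in HGPP against MCS and -0.16 to 0.30 in HGPP against MCD. In these comparisons 0, 0 and 2 of 6 livers correlated best with their own number. Deviations from the mean of only 3 livers depend on each other, so these correlations cannot exclude a pairing. With the replicate block 1876 genes were called in MCD against MCS (3 members higher and 10 lower), 1585 in HGPP against MCS (3 higher and 11 lower) and 14 in HGPP against MCD.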
